A study of Mus musculus with 142 samples.

Results

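The comparison described here was K27M against Control in oligodendrocyte precursor cells (OPCs) of the dorsal telencephalon after 2 days of differentiation. It was chosen by region, genotype and day and took in 2 of the 16 groups of the series, 18 libraries with 9 in each group. The cells came from litters of mice on an FVB background, at postnatal days 5 to 7, that carried a conditional knock-in of the H3.3 K27M mutation at the H3f3a locus together with Cre under the GFAP promoter (AMGFAP-Cre in the labels), or were Control littermates. By the study's methods this Cre is active in neural stem and progenitor cells, so that neurons and astrocytes of these animals can carry the mutation too. Cortex, corpus callosum and hippocampus were pooled by genotype across a litter, endothelial cells and microglia were depleted by lectin panning, and OPCs were captured with an antibody to PDGFRa. All cells first grew in proliferation medium (forskolin, CNTF, neurotrophin-3 and PDGF) and were then moved for 2 days to differentiation medium, in which thyroid hormone took the place of PDGF and neurotrophin-3. Each group held 3 cultures, numbered 38, 41 and 42, with 3 wells each. Wells of a culture share its cells, but a test over wells counts them as independent. A test over culture sums has the culture, with n = 3 in each group, as its unit. It takes its spread from all 16 groups, in which the same culture lines recur on every day and are counted as independent.

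Histone H3.3 with methionine in place of lysine 27 blocks PRC2, the complex that trimethylates lysine 27 of histone H3 and so keeps developmental genes silent. The mutation defines diffuse midline glioma, a childhood tumour with many features of OPCs. OPCs divide while PDGF is present. When it is withdrawn and thyroid hormone is added, they leave the cell cycle, pass through a committed stage and turn on myelin genes, and day 2 lies within that passage.

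Levels are given in CPM, the count of a gene scaled to a common library size (TMM), and differences as log2 fold changes of K27M over Control ± SE. Libraries held 32.0 to 77.2 M read pairs (K27M 32.0 to 49.0 M, Control 36.3 to 77.2 M), and 22919 to 25719 genes had a count. Passage numbers were not matched. In culture 38 the K27M wells were at passages 3, 3 and 4 and the Control wells at 2, in culture 41 at 2 against 3, and in culture 42 at 1, 3 and 3 against 1. Culture 38 belonged to sequencing batch 1 and the others to batch 2, so that differences within a culture lie within a batch. H3f3a itself, with the knocked-in allele counted in it, stood at 585 to 731 CPM (median 649) in K27M and 305 to 448 CPM (median 364) in Control libraries (0.83 ± 0.09). Prm1, a protamine gene of spermatids, had 36.6 to 68.7 CPM (median 55.1) in K27M libraries and was at 0 in 8 of the 9 Control libraries, with 0.0274 CPM in the other. The study's methods tie H3f3a to the inserted cassette and Prm1 to the Cre construct, which holds a Prm1 promoter, and by both genes every library matched its label. Of the telencephalic transcription factors Emx2 had 1.89 to 4.82 CPM and Emx1 at most 0.258 CPM, while of the hindbrain genes Hoxa2 and Hoxa5 did not exceed 0.0923 CPM in any library, Pax3 reached 0.13 CPM and Irx2 0.884 CPM. The vascular marker Cldn5 reached at most 0.0313 CPM and the microglial markers Cx3cr1, Tmem119 and Csf1r at most 0.67 CPM, while P2ry12 reached 1.53 CPM in a K27M well of culture 38.

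A K27M well stood apart before any gene was compared: the passage 1 well of K27M culture 42. It carried the highest level of astrocyte, neuronal, microglial and vascular marker lists of the 9 K27M libraries, and it is also the only K27M well at the passage of its Control wells. The highest K27M levels of Cx3cr1, Tmem119 and Csf1r are its own, as are those of Col1a1 (1.39 CPM) and Dcn (1.47 CPM), markers of fibroblasts. Its 2 sister wells at passage 3 lay at the other end for many genes. Each result below was therefore also computed without the passage 1 well and without both passage 3 wells, alternatives chosen after seeing the data.

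Over wells, 6390 of 19769 genes tested passed edgeR's quasi-likelihood test at an adjusted p under 0.05 (32.3%), 3352 higher in K27M (17.0%) and 3038 lower (15.4%). Differences of at least 2-fold were found for 647 and 614 of them. With the wells of each culture summed, 1238 genes passed (6.26%), 720 higher (3.64%) and 518 lower (2.62%). In all, 1230 genes passed both tests with the same sign in 3 of 3 cultures, 720 higher and 510 lower, and 581 genes did not overlap between the 9 K27M and 9 Control libraries (2.94%, 378 higher and 203 lower). The median over all genes was 0.03. List counts below are to be read against these shares of all genes. Of the 1230 genes, 1230 passed over wells without the passage 1 well of culture 42 and 1224 without its passage 3 wells, but over culture sums without the passage 3 wells 439 of them passed. With a random effect of the culture line (limma voom) 1201 of them passed, of 3306 genes in all.

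**Figure D1:**
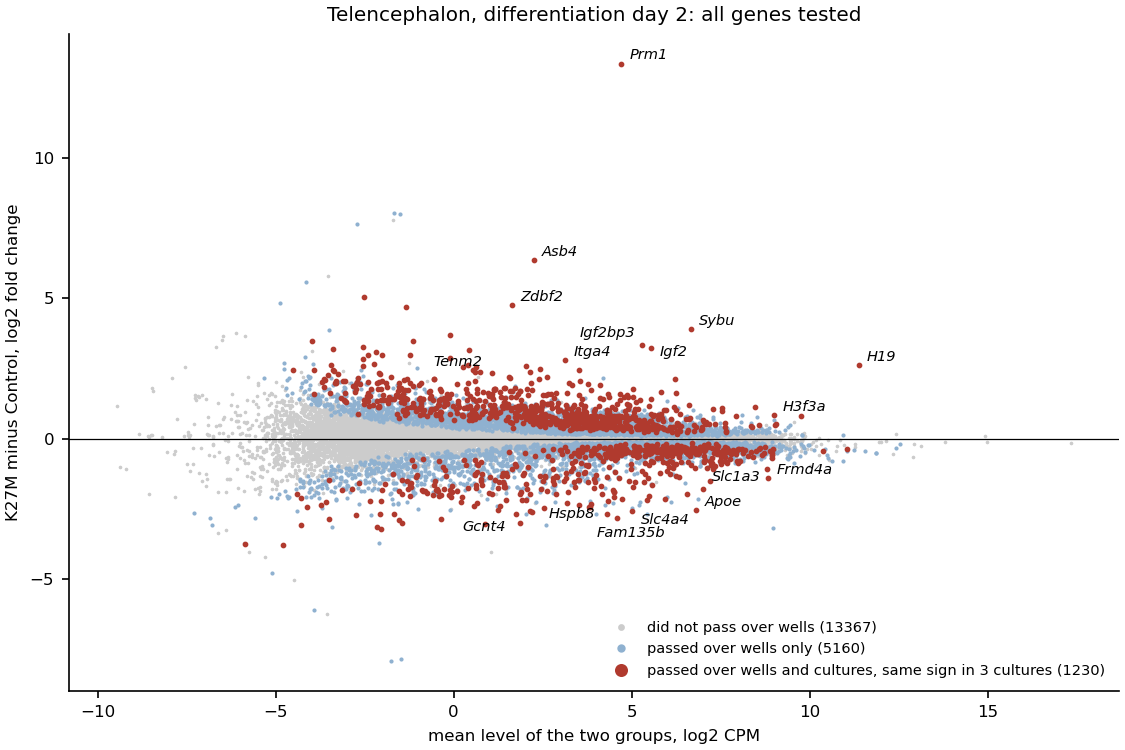
Log2 fold change of K27M over Control against the mean level of the 2 groups (log2 CPM) for the 19769 genes tested in telencephalon at day 2. Grey points did not pass over wells, blue points passed over wells only, and red points are the 1230 genes that passed over wells and culture sums with the same sign in 3 cultures (genes with no count in these 18 libraries are not drawn). Red points above 0 outnumber those below, 720 to 510, and Prm1 lies far above the rest.

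The plot of all genes shows 2 features that the next paragraphs follow. The genes with the largest rises included several of fetal growth control, and the genes with the largest falls included Apoe and Slc4a4, both abundant in astrocytes.

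Genes of the fetal growth program rose. Lin28, Igf2bp and Hmga proteins keep growth and stem cell genes on before birth and are silenced in the maturing brain, and imprinted genes are those read from a single parental copy, many of them growth regulators. Of 15 tested genes of the fetal list 10 were higher and 0 lower over wells, and 6 were higher over culture sums, with a median of 0.67. Of 43 tested imprinted genes 19 were higher and 3 lower (14 and 1 over culture sums), with a median of 0.28. The 2 lists share Igf2, H19, Dlk1 and Plagl1. Without overlap between the groups were 6 fetal and 9 imprinted genes, where 2.94% of all genes were.

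Asb4, an imprinted gene for a substrate receptor of an E3 ubiquitin ligase, stood at 2.76 to 13.4 CPM (median 12.3) in K27M libraries and at 0.0255 to 0.204 CPM (median 0.13) in Control libraries. It was near absent in Control, and every K27M library lay far above the highest Control library, the passage 1 well of culture 42 being the lowest of them. Its log2 fold change was 6.36 ± 0.30 (adjusted p = 5.96e-40 by edgeR's quasi-likelihood test, 2.44e-10 over culture sums). Igf2bp3, an RNA-binding protein that binds mRNAs including that of Igf2, had 29.8 to 96.2 CPM (median 83.5) against 4.19 to 10.3 CPM (median 7.42). The groups did not overlap, with differences of 2.23, 4.24 and 3.34 on the log2 scale in cultures 38, 41 and 42 (3.31 ± 0.38, adjusted p = 4.35e-12, 0.00547 over culture sums).

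The letters that follow are 300-base promoter windows of 3 genes that rose and of Gfap. They run from 250 bases before to 50 after the start, 5′ to 3′ on the gene's strand (RefSeq, GRCm38.p6). Gfap had a lower level in K27M but was not among the 1230 genes that passed both tests. CG dinucleotides are in capitals because PRC2 acts mainly at CG-rich promoters. Igf2bp3 lies on the minus strand at chr6:49214905-49215204, Itga4 on the plus strand at chr2:79255176-79255475, Asb4 on the plus strand at chr6:5383136-5383435 and Gfap on the minus strand at chr11:102897151-102897450.
Igf2bp3: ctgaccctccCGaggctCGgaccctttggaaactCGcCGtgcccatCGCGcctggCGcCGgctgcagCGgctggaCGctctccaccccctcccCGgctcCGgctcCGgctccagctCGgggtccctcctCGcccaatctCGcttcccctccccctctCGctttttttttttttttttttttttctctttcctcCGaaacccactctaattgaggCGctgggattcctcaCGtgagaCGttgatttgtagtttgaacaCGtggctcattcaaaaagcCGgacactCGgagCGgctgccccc
Itga4: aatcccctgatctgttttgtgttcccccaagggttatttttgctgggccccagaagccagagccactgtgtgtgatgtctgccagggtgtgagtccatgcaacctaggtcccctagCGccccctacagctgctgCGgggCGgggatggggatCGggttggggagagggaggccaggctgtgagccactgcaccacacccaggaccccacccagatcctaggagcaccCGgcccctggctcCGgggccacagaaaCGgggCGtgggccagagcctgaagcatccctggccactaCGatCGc
Asb4: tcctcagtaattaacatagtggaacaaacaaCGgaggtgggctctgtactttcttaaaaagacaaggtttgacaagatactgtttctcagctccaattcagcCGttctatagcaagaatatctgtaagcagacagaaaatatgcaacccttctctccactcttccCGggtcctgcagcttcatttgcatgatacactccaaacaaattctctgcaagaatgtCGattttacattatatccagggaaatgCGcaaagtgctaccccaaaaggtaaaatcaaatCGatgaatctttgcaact
Gfap: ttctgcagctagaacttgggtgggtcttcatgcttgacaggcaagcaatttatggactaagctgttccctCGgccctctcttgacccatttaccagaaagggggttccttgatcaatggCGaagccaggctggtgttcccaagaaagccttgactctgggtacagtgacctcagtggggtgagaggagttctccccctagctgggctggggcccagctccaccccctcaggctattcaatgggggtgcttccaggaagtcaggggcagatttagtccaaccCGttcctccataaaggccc
The Igf2bp3 window held 25 CG, a count that 18.4% of 32851 windows reach. The Itga4 window held 10 (43.5% of windows have as many), the Asb4 window 6 (56.4%) and the Gfap window 3 (76.7%). No test was made on 4 windows, and they do not stand for the other genes that rose or fell.

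Igf2, the fetal insulin-like growth factor, had 31 to 137 CPM (median 78.1) in K27M and 3.97 to 13 CPM (median 10.7) in Control libraries (3.24 ± 0.33, adjusted p = 1.83e-14, 0.00278 over culture sums). H19, the imprinted noncoding RNA beside Igf2 on chromosome 7, ran from 2071 to 6799 CPM (median 4282) against 386 to 1303 (median 709), a difference of 2.61 ± 0.23. Neither gene overlapped between the groups, and in the passage 1 well Igf2 was the lowest of the K27M libraries (31 CPM). Zdbf2, an imprinted gene of postnatal feeding, had 0.188 to 14.5 CPM (median 6.59) against 0 to 0.739 CPM (median 0.106), a difference of 4.74 ± 0.64. Its lowest K27M library lay within the Control range. Magel2, an imprinted gene of the Prader-Willi region, had 1.44 to 2.86 CPM (median 2.59) against 0.108 to 0.841 CPM (median 0.345), a difference of 2.62 ± 0.28. Plag1, a zinc finger activator of Igf2, had 2.31 to 5.38 CPM (median 3.27) against 0.648 to 1.56 CPM (median 0.965), a difference of 1.72 ± 0.27, and neither gene overlapped between the groups.

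**Figure D2:**
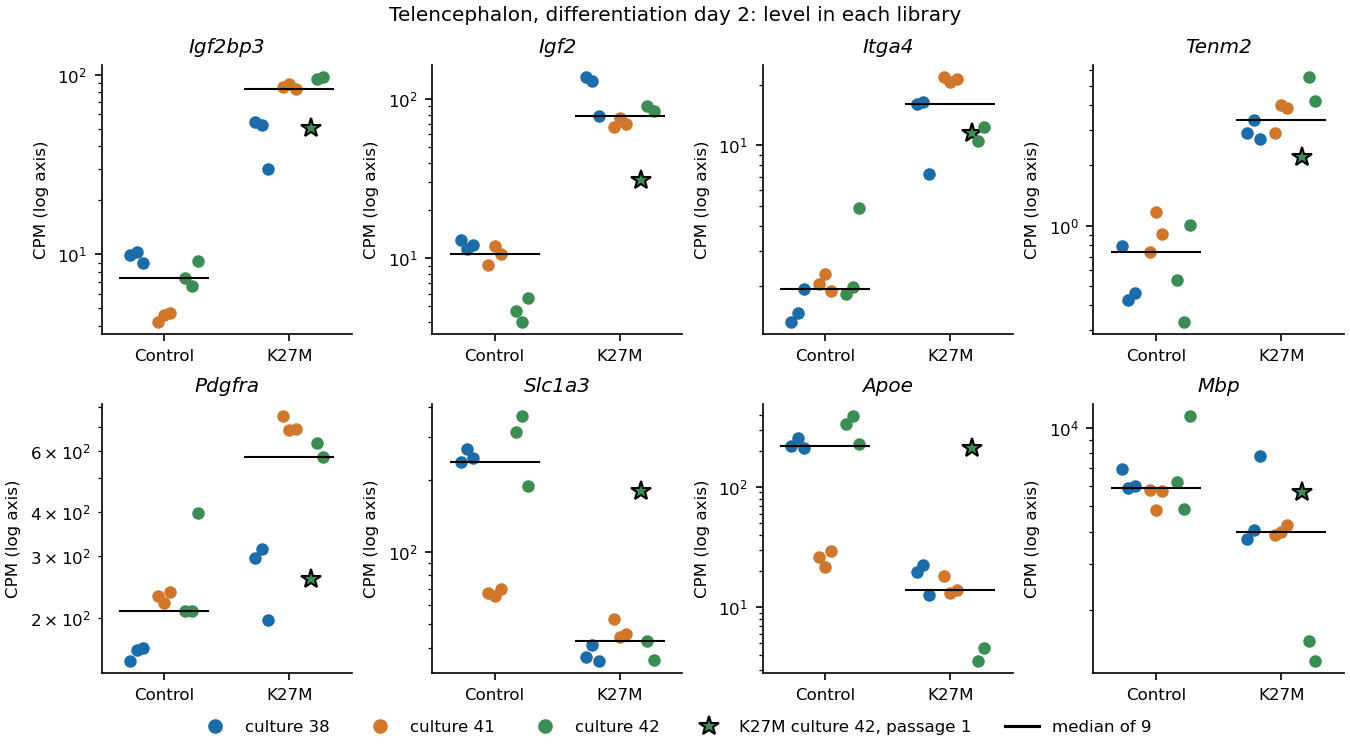
Levels (CPM, log axis) of 8 genes in each library of telencephalon at day 2, Control left and K27M right in each panel. Points are wells coloured by culture, the star is the passage 1 well of K27M culture 42, and the line is the median of 9. Igf2bp3, Igf2, Itga4 and Tenm2 do not overlap between the groups, while Pdgfra, Slc1a3, Apoe and Mbp do.

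Other genes with the largest rises were of mixed function. Sybu, syntabulin, which links kinesin motors to cargo of the axon, had 179.7 to 209 CPM (median 188) in K27M and 9.76 to 20.5 CPM (median 10.9) in Control libraries. The K27M libraries lay within a narrow band, and the difference was 3.89 ± 0.12 (adjusted p = 6.45e-60, 9.81e-15 over culture sums). Itga4, the integrin alpha 4 chain that binds VCAM-1 and fibronectin, had 7.22 to 21.7 CPM (median 16) against 1.32 to 4.91 CPM (median 1.94), a difference of 2.78 ± 0.21 (adjusted p = 2.81e-21). Its groups did not overlap either. Runx1t1, a transcriptional corepressor, had 3.38 to 10.2 CPM (median 6.82) against 0.877 to 1.49 CPM (median 1.1), a difference of 2.58 ± 0.22. Ldhb, a lactate dehydrogenase subunit, had 23.6 to 233 CPM (median 86.6) against 3.106 to 68.8 CPM (median 19.2), a difference of 2.12 ± 0.34 and overlapped, as did Slc5a7, the choline transporter (2.11 ± 0.31, adjusted p = 0.031 over culture sums and 0.136 without the passage 3 wells of K27M culture 42).

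The 10 genes with the largest falls included Apoe and Slc4a4, both abundant in astrocytes. Apoe, the lipid carrier, had 3.56 to 212 CPM (median 14) in K27M and 21.6 to 387 CPM (median 219) in Control libraries. The highest K27M value was the passage 1 well of culture 42, just under its Control wells (228 to 387 CPM), while the passage 3 wells of the same culture had 3.56 and 4.59 CPM. The difference was -2.56 ± 0.47 (adjusted p = 5.79e-06 by edgeR's quasi-likelihood test, 0.0425 over culture sums, 0.24 over culture sums without the passage 3 wells). By culture it was -3.66, -0.78 and -2.15. The part of passage and of astrocyte RNA in this and the next falls was not tested. Slc4a4, a sodium bicarbonate cotransporter, had 2.34 to 55.7 CPM (median 4.43) against 12.4 to 97.9 CPM (median 67.5), a difference of -2.59 ± 0.41, again with the passage 1 well as its maximum and the other 8 K27M libraries below every Control library.

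Hspb8, a small heat shock protein, had 1.12 to 29.7 CPM (median 2.29) against 12 to 65.8 CPM (median 37.5), a difference of -2.69 ± 0.34. Fndc5, the precursor of irisin (-2.69 ± 0.38), Gna14, a G protein alpha subunit (-2.47 ± 0.39), and the receptor genes Gabra4 of GABA (-2.58 ± 0.33) and Gria1 of glutamate (-2.46 ± 0.36) fell with the same well at the top of the K27M range and the other 8 K27M libraries below every Control library, which also held for Hspb8. Over culture sums without the passage 3 wells these 5 genes had adjusted p-values of 0.0835, 0.0872, 0.191, 0.0595 and 0.131. The other 3 genes did not overlap between the groups, the passage 1 well included. Fam135b, of unsettled function, had 4.7 to 8.17 CPM (median 6.05) against 17.7 to 62.1 CPM (median 42.6), a difference of -2.84 ± 0.24 (adjusted p = 0.000227 over culture sums without the passage 3 wells). Gcnt4, a glycosyltransferase of mucin-type glycans, had 0.492 to 2.09 CPM (median 0.65) against 2.8 to 10.4 CPM (median 7.29), a difference of -3.0 ± 0.35 (adjusted p = 0.0234), and Gbp9, an interferon-inducible GTPase, 0.25 to 3.79 CPM (median 1.13) against 3.91 to 11.6 CPM (median 8.03), a difference of -2.62 ± 0.33 (adjusted p = 0.0404).

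Astrocyte genes were lower. Of 20 astrocyte genes 1 was higher and 16 lower over wells, and 5 were lower over culture sums, with a median of -1.41 and 0 of 20 without overlap between the groups. In bulk RNA fewer astrocytes and less astrocyte RNA per cell cannot be told apart. The summed level of the list ran from 708 to 2698 CPM in K27M and from 1358 to 4848 in Control libraries. Control culture 41 was the lowest of the Controls (1358 to 1430.0 CPM), and the difference was smallest there: the mean log2 CPM of the list differed by -2.16, -0.49 and -1.42 in cultures 38, 41 and 42.

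Gfap, the intermediate filament of astrocytes, had 13.4 to 758 CPM (median 54) in K27M and 186 to 1560 (median 1040) in Control libraries (-3.18 on the log2 scale). It was not among the 1230 genes that passed over wells and culture sums with the same sign in 3 cultures. Slc1a3, the glutamate transporter GLAST, had 35.1 to 179 CPM (median 42.7) against 65.8 to 367 CPM (median 236), a difference of -1.81 ± 0.28 (adjusted p = 7.03e-08 by edgeR's quasi-likelihood test, 0.0271 over culture sums). Clu, clusterin (-2.19 ± 0.34), and Agt, angiotensinogen (-2.55 ± 0.47), followed. Each had its K27M maximum in the passage 1 well, and the other 8 K27M libraries of Slc1a3, Clu and Agt lay below every Control library.

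At matched passage the difference was not of 1 direction. Against the 3 Control wells of culture 42, all at passage 1, the K27M passage 1 well was above the range for 3 astrocyte genes, within it for 8 and below it for 9. Its mean log2 CPM was 5.56, against 5.48 to 6.14 in those Control wells and 2.84 to 2.93 in the passage 3 wells of K27M culture 42. Over wells 16 genes were lower both without the passage 1 well (median -1.83) and without the passage 3 wells (median -1.26), while over culture sums without the passage 3 wells 0 of 20 passed edgeR's test (14 of 20 were lower at an unadjusted p under 0.05 with all wells, and 16 by limma voom). Passage and genotype cannot be told apart within culture 42 beyond that 1 well.

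Markers of other cell types were low and moved less. Of the ependymal and choroid list 1 of 10 was higher and 1 lower. The latter was Foxj1, a regulator of motile cilia (3.1 to 16.7 CPM, median 3.7, against 4.21 to 21.6 CPM, median 13.2, -1.23 ± 0.20). Of 18 vascular and fibroblast genes 2 were higher and 4 lower, where 17.0% and 15.4% of all genes were over wells. Their summed level was 7.12 to 76.4 CPM in K27M, highest in the passage 1 well, and 10.8 to 50.9 in Control libraries. Kdr, a VEGF receptor (3.55 to 11.8 CPM, median 8.04, against 1.97 to 4.46 CPM, median 2.58, 1.56 ± 0.24), passed over culture sums as well. Of 18 microglial genes 4 were tested, and 0 of them passed in edgeR, over wells or culture sums (0 at an unadjusted p under 0.05 over culture sums) or in limma voom. Cd68, a lysosomal protein of phagocytes (0.03 ± 0.18), and P2ry12, a purine receptor (0.07 ± 0.27), were 2 of them.

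Cell cycle genes were higher, but differed between cultures. Of 37 tested 32 were higher over wells and 0 lower, with a median of 0.69. Over culture sums 0 passed edgeR's test (4 at an unadjusted p under 0.05), 6 passed in limma voom, and without culture 41 the count over wells was 6. The mean of the list differed by 0.32, 1.16 and 0.27 in cultures 38, 41 and 42. Mki67, the marker of cycling cells, had 124 to 294 CPM (median 202) in K27M and 91.9 to 196 CPM (median 106) in Control libraries (0.78 ± 0.23, adjusted p = 0.00459 by edgeR's quasi-likelihood test, 0.294 over culture sums). Top2a, the topoisomerase of mitotic chromosomes, stood at 93.2 to 326 CPM (median 202) against 79.4 to 216 CPM (median 114), a difference of 0.68 ± 0.23. Ccnb1, cyclin B1, had 0.77 ± 0.28 (adjusted p = 0.025, 0.419 over culture sums). Pcna, the replication clamp, had 0.10 ± 0.13 and did not pass (adjusted p = 0.603). The groups overlapped for these 4 genes. In culture 42 the Control wells spread over 1020 to 1661 CPM of summed cell cycle genes.

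OPC genes were partly higher. Of 31 tested 16 were higher and 5 lower, with a median of 0.29, and 4 were higher over culture sums. Pcdh15, a protocadherin, had 47.7 to 179 CPM (median 131) against 25.3 to 56.8 CPM (median 36.2), a difference of 1.63 ± 0.19. Lnx1, a ubiquitin ligase that binds Numb, had 11.8 to 48.3 CPM (median 37.5) against 5.2 to 17.1 CPM (median 9.86), a difference of 1.60 ± 0.17, and Rlbp1, a retinaldehyde-binding protein, 11.7 to 67.4 CPM (median 53.5) against 8.37 to 21 CPM (median 15), a difference of 1.49 ± 0.17. Pdgfra, the receptor by which the cells were captured, had 196 to 752 CPM (median 576) against 150.3 to 397 CPM (median 209), a difference of 1.13 ± 0.17 (adjusted p = 1.86e-08 by edgeR's quasi-likelihood test, 0.0235 over culture sums, 0.148 without the passage 3 wells of culture 42). For each of the 4 genes all 3 cultures differed in the same direction, which the rule that picked them required, and the ranges overlapped. Over culture sums without the passage 3 wells 2 of the 4 passed, Lnx1 (0.0216) and Rlbp1 (0.0322). By culture the mean of the list differed by -0.08, 0.63 and 0.41. Olig2, the lineage transcription factor, had 0.31 ± 0.09 (adjusted p = 0.184 over culture sums).

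Genes of the later stages were lower for a part over wells, and few passed over culture sums. Of 25 committed and newly formed oligodendrocyte genes 2 were higher and 9 lower (0 and 1 over culture sums), with a median of -0.44. Frmd4a, a scaffold of cell polarity, was the member that also passed over culture sums. It stood at 161 to 358 CPM (median 249.8) in K27M and 495 to 790.3 CPM (median 689) in Control libraries, without overlap (-1.42 ± 0.22, adjusted p = 1.61e-07 by edgeR's quasi-likelihood test, 0.0316 over culture sums, 0.0706 without the passage 3 wells). Gpr17, the receptor that marks committed cells, had 0.02 ± 0.27 (adjusted p = 0.972).

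Of 40 myelin genes 1 was higher and 16 lower (0 and 3 over culture sums), with a median of -0.53 and culture differences of -0.04, -0.41 and -1.20. Mbp, the myelin basic protein, ran from 1270.0 to 7794 CPM (median 3976) in K27M and from 4818 to 11090.0 (median 5872) in Control libraries. The groups overlapped and the difference was -0.54 ± 0.52 (adjusted p = 0.461). Cnp, a phosphodiesterase of early myelin, had -0.51 ± 0.19 (adjusted p = 0.0345, 0.419 over culture sums). Pllp, plasmolipin, did not overlap (72.5 to 145 CPM, median 94, against 171 to 255 CPM, median 191, -0.94 ± 0.15). Cryab, a small heat shock protein found in oligodendrocytes and astrocytes, had 0.599 to 8.96 CPM (median 0.88) against 1.3 to 12.8 CPM (median 8.54), a difference of -1.97 ± 0.36, with its K27M maximum in the passage 1 well. The passage 3 wells of K27M culture 42 had the lowest myelin levels of all, with 15070.0 and 15220.0 CPM summed over the list. Without them 10 genes were lower over wells and 0 passed over culture sums. A Control well of culture 42 stood at the other end, with a mean of 6.49 log2 CPM against 5.27 to 5.42 in the other 8 Control libraries.

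Lipid synthesis genes, which supply the myelin membrane, were lower for a part. Of 26 galactolipid and fatty acid genes 0 were higher and 16 lower (0 and 3 over culture sums), with a median of -0.34 and differences of -0.21, -0.53 and -0.39 by culture. Cerk, ceramide kinase, had 44.3 to 175 CPM (median 100.1) against 142.1 to 227 CPM (median 197), a difference of -1.05 ± 0.16, and Srebf1, the transcription factor of fatty acid synthesis, 53.8 to 127 CPM (median 65.5) against 112 to 184 CPM (median 123), a difference of -0.94 ± 0.14. Elovl5, a fatty acid elongase, did not overlap between the groups (124 to 162 CPM, median 135, against 169 to 239.8 CPM, median 209.7, -0.56 ± 0.08, adjusted p = 0.00649 over culture sums, 0.0258 without the passage 3 wells). Of 24 cholesterol synthesis genes 0 were higher and 5 lower over wells, where 17.0% and 15.4% of all genes were. Their median was -0.12. Hsd17b7, an enzyme of late cholesterol synthesis, had 89.5 to 132 CPM (median 104) against 132 to 256 CPM (median 213), a difference of -0.86 ± 0.14, Insig1, a brake on the pathway, -0.38 ± 0.09, and Sc5d, a sterol desaturase, -0.36 ± 0.08. The 3 genes passed over culture sums.

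**Figure D3:**
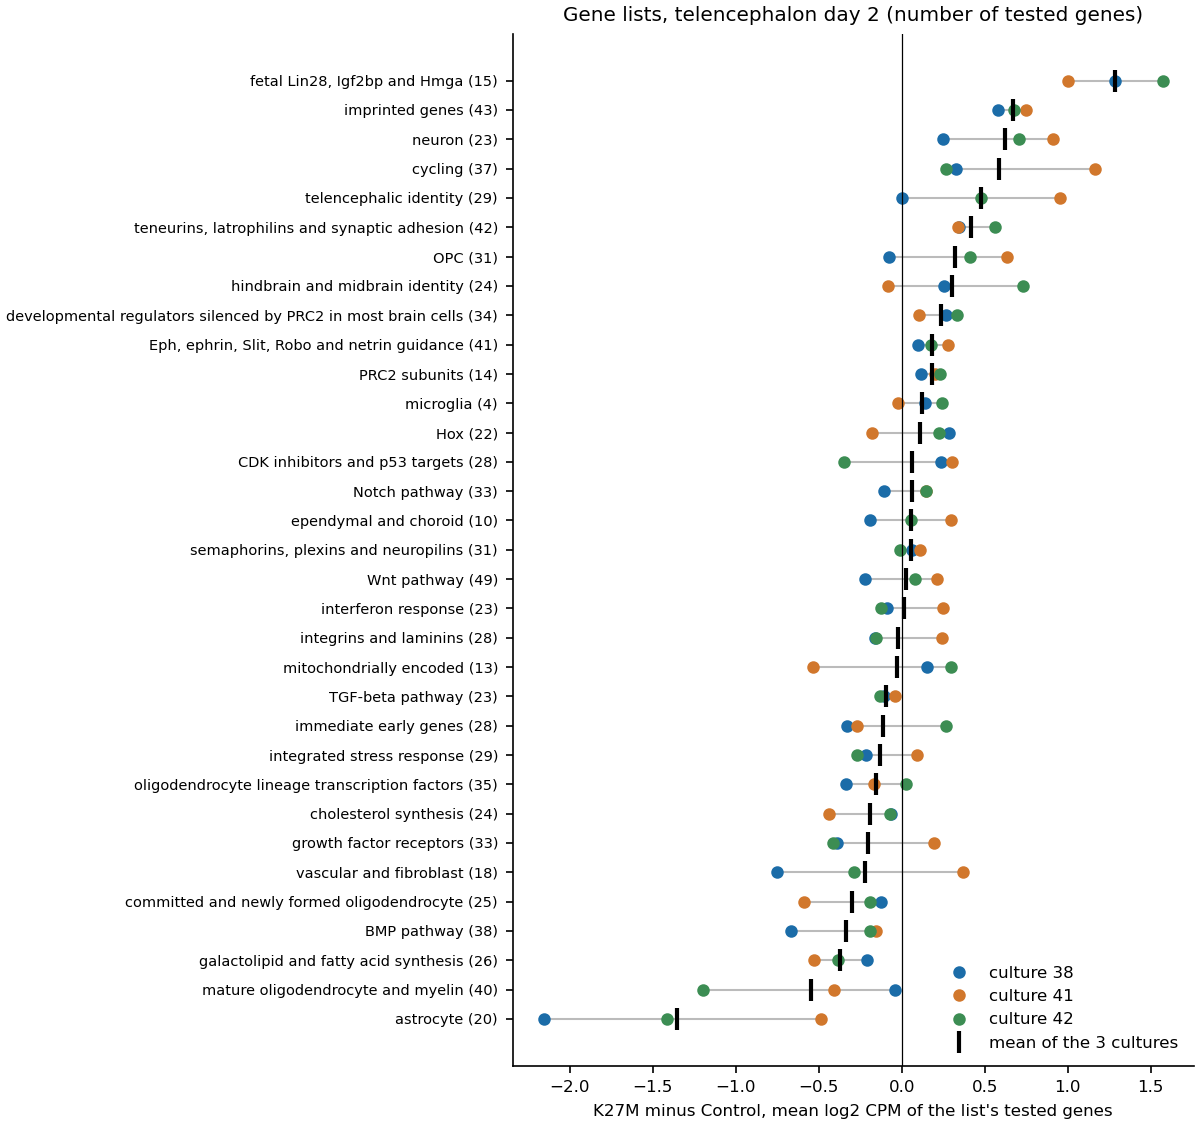
Difference of K27M and Control in the mean log2 CPM of each gene list at day 2 in telencephalon, with the number of tested genes in brackets. Coloured points are the 3 cultures and the black bar their mean. The fetal list lies at 1.00 to 1.57 in the 3 cultures and the astrocyte list at -2.16 to -0.49, while most signalling lists straddle 0.

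The plot of gene lists shows which groups had the same sign in all cultures. The fetal, imprinted, neuronal, cell cycle, synaptic adhesion, guidance, PRC2-silenced and PRC2 subunit lists were above 0 in 3 of 3, the telencephalic list in cultures 41 and 42 with culture 38 at 0.00, and the committed, myelin, lipid, cholesterol, BMP, TGF-beta and astrocyte lists below 0 in 3 of 3. Lists share members and cultures are 3, so that these are descriptions. Over culture sums without the passage 3 wells of K27M culture 42, 7 fetal, 11 imprinted, 4 neuronal, 3 teneurin and synaptic adhesion, 3 guidance and 2 OPC genes were higher, while 1 galactolipid gene and 0 committed, myelin and astrocyte genes were lower. Without culture 41 over wells, 2 committed, 9 myelin and 4 galactolipid genes were lower and 6 telencephalic genes higher. Without culture 42, 11 cholesterol genes were lower and 13 CDK inhibitor and p53 genes higher. Without culture 38, 13 Wnt genes were higher and 7 growth factor receptors lower.

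Neuronal and adhesion genes rose in OPC cultures. Of 23 neuronal genes 11 were higher and 3 lower (5 and 2 over culture sums), with a median of 0.50. Dcx, doublecortin of migrating neurons, had 24.3 to 64.9 CPM (median 31.3) against 7.36 to 15.9 CPM (median 12.4), a difference of 1.59 ± 0.20 (adjusted p = 1.77e-10 by edgeR's quasi-likelihood test, 0.00453 over culture sums). Ina, the neurofilament alpha-internexin, had 20.9 to 39.1 CPM (median 30.2) against 6.41 to 14.6 CPM (median 10.5), a difference of 1.47 ± 0.19, and Syt1, a calcium sensor of vesicle release, 7.62 to 10.5 CPM (median 9.25) against 2.97 to 5.04 CPM (median 3.87), a difference of 1.21 ± 0.13. The groups did not overlap for these 3, and the passage 1 well, which had the highest mean over the list, held the maximum of none of them. Gng3, a neuronal G protein gamma subunit, fell (-0.93 ± 0.12). Of the neuronal markers Rbfox3 reached at most 1.49 CPM and Slc17a7 at most 0.258 CPM, both in the passage 1 well. In the same well Gad2 had 6.98 CPM and Snap25 5.95 CPM. For Gad2 and Snap25 the K27M medians were 0.25 and 2.74 CPM, and Control libraries reached 3.15 and 4.22 CPM.

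Of 42 teneurin, latrophilin and synaptic adhesion genes 23 were higher and 2 lower (8 and 0 over culture sums), with a median of 0.40. Tenm2, a teneurin, which binds latrophilins, had 2.21 to 5.51 CPM (median 3.39) against 0.329 to 1.17 CPM (median 0.735), a difference of 2.35 ± 0.24, and its relative Tenm3 34.3 to 63.1 CPM (median 41) against 14.8 to 22.3 CPM (median 17.9), a difference of 1.19 ± 0.12. Neither overlapped. Slitrk1 (1.25 ± 0.17) and Slitrk4 (0.92 ± 0.15), synaptic membrane proteins, also rose. Over culture sums without the passage 3 wells of culture 42 they had adjusted p-values of 0.0832 and 0.177.

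Guidance receptors were higher as well. Of 41 Eph, ephrin, Slit, Robo and netrin genes 15 were higher and 6 lower (7 and 1 over culture sums). Epha3 (1.78 ± 0.24), Epha7 (1.1 ± 0.12) and Ephb3 (0.92 ± 0.16), Eph receptors, rose with Dcc, the netrin receptor (84.7 to 201 CPM, median 116, against 35.8 to 86 CPM, median 62.1, 1.19 ± 0.16). Epha7 did not overlap (5.44 to 8.23 CPM, median 6.68, against 2.49 to 4.31 CPM, median 2.95). Of 31 semaphorin, plexin and neuropilin genes 9 were higher and 2 lower, and Sema6c (0.52 ± 0.11) passed over culture sums. Of 28 integrin and laminin genes 6 were higher and 9 lower, where 17.0% and 15.4% of all genes were over wells. Beside Itga4, which rose, the laminin-binding integrin Itga7 (3.25 to 27.9 CPM, median 5.6, against 11.4 to 46.9 CPM, median 35.6, -1.99 ± 0.28) and the laminin chain Lamc1 (145 to 188 CPM, median 162, against 226 to 297 CPM, median 281, -0.73 ± 0.12) fell. Lamc1 did not overlap, and for Itga7 the passage 1 well alone lay within the Control range.

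Most developmental regulators that PRC2 silences were too low to test. Of 102 transcription factor genes that PRC2 silences in most brain cells 34 had enough counts to be tested. Of these 12 were higher and 5 lower (6 and 4 over culture sums), where 17.0% and 15.4% of all genes were over wells. Without overlap were 8, where 2.94% of all genes were. The low-count filter was set over all libraries of the series, so that a gene near absent in both groups here could still enter. A gene with too few reads across the series could not, and these counts describe the 34 alone. Neurog2, a proneural factor, rose and had 0.962 to 2.28 CPM (median 1.61) in K27M against 0.0671 to 0.398 CPM (median 0.194) in Control libraries (2.87 ± 0.33). Eya4, a transcriptional coactivator, rose too, with 0.967 to 2.58 CPM (median 1.59) against 0.441 to 0.823 CPM (median 0.603), a difference of 1.35 ± 0.21. In the other direction went Pou4f1, a sensory neuron factor (0.2 to 0.56 CPM, median 0.339, against 0.95 to 2.47 CPM, median 1.43, -2.01 ± 0.25), and Onecut2 (1.08 to 3.36 CPM, median 1.38, against 1.81 to 26 CPM, median 3.44, -1.91 ± 0.30), a neuronal factor, the latter with overlap. Of 39 Hox genes 22 were tested, and 0 were higher and 1 lower over wells, 0 over culture sums in edgeR (1 lower at an unadjusted p under 0.05) and 0 in limma voom. Hoxa3 (1.12 ± 0.73), Hoxd1 (0.84 ± 0.84) and Hoxb2 (0.93 ± 0.72) did not pass, and none of them exceeded 0.102 CPM in a library.

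Regional identity factors moved in both directions. Of 29 telencephalic genes 10 were higher and 2 lower (4 and 0 over culture sums). Dmrta2, a factor of cortical patterning, had 2.95 to 8.47 CPM (median 4.47) against 0.935 to 2.19 CPM (median 1.45), a difference of 1.69 ± 0.21, without overlap. Etv1, an ETS factor, had 26.8 to 73.4 CPM (median 70.5) against 15.3 to 30.5 CPM (median 20), a difference of 1.39 ± 0.14, and Lmo3, a LIM-domain partner of transcription factors, 1.20 ± 0.21. Of 24 hindbrain and midbrain genes 8 were higher and 3 lower (5 and 3 over culture sums). Pbx3, a cofactor of Hox proteins, had 21.6 to 26.3 CPM (median 23.1) against 8.87 to 11.7 CPM (median 10.4), a difference of 1.16 ± 0.07 (adjusted p = 5.33e-31 by edgeR's quasi-likelihood test, 1.34e-07 over culture sums). Zic1 (1.26 ± 0.15) and Irx1 (1.63 ± 0.21) rose as well, and none of the 3 overlapped. En2, a midbrain factor, fell (2.06 to 16.5 CPM, median 7.86, against 8.38 to 46.3 CPM, median 19.8, -1.68 ± 0.32). Irx3 (-1.62 ± 0.30) and Irx5 (-1.60 ± 0.35) were low in all libraries, at most 0.739 CPM, and fell.

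The study itself names 30 genes, some of them from these samples, and for those the count is no independent evidence. Of them 13 were higher and 5 lower (7 and 3 over culture sums). Those not yet described include Lmnb1, lamin B1 (0.69 ± 0.14, adjusted p = 0.095 over culture sums), Slit2, a guidance ligand (0.79 ± 0.22, adjusted p = 0.254), and Fyn, a kinase of myelination (-0.47 ± 0.13, adjusted p = 0.244). Lhx9, a LIM homeobox factor at 0.18 CPM or less, had 2.24 ± 0.61. Qdpr, Pax6, Emx2, Irx2, Gbx1, Gbx2 and Vax2 did not pass over wells, with adjusted p-values of 0.11, 0.957, 0.0777, 0.151, 0.518, 0.055 and 0.107.

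Some PRC2 genes were slightly higher. Of 14 PRC2 genes 5 were higher and 0 lower, with a median of 0.14. Epop, an accessory subunit, had 5.16 to 7.44 CPM (median 6.34) against 2.5 to 3.37 CPM (median 2.91), a difference of 1.08 ± 0.15, without overlap, and Bmi1, a subunit of the sister complex PRC1 that the list holds, 117 to 141 CPM (median 131) against 83.6 to 102 CPM (median 97.9), a difference of 0.41 ± 0.05. Of 28 CDK inhibitors and p53 targets 6 were higher and 4 lower (1 and 1 over culture sums), where 17.0% and 15.4% of all genes were over wells. Cdkn2b, an inhibitor of CDK4, had 0.579 to 1.45 CPM (median 1.04) against 1.14 to 3.16 CPM (median 2.33), a difference of -1.19 ± 0.22 and Trp53 21.1 to 36.4 CPM (median 30.5) against 9.97 to 25.4 CPM (median 22.7), a difference of 0.48 ± 0.13 (adjusted p = 0.00187 by edgeR's quasi-likelihood test, 0.044 over culture sums, 0.0765 without the passage 3 wells of culture 42).

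Lineage transcription factors split. Of 35 tested 8 were higher and 11 lower (0 and 3 over culture sums). Id3, an inhibitor of basic helix-loop-helix factors that BMP induces, had 13.3 to 54.6 CPM (median 20.5) against 34.2 to 105 CPM (median 67.5), a difference of -1.42 ± 0.26 (adjusted p = 0.0425 over culture sums, 0.136 without the passage 3 wells of culture 42). Klf9, a target of thyroid hormone that promotes differentiation, had 52.1 to 97.1 CPM (median 60.1) against 108 to 149 CPM (median 123), a difference of -0.84 ± 0.12, and Klf6, a factor of myelination, 35.7 to 51.4 CPM (median 50.4) against 62.2 to 81.3 CPM (median 69.1), a difference of -0.57 ± 0.10. The 2 Klf genes did not overlap between the groups.

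Signalling lists held genes of both directions. BMP signals turn OPCs from the oligodendrocyte towards the astrocyte fate. Of 38 BMP pathway genes 5 were higher and 15 lower over wells, 0 and 3 over culture sums, with a median of -0.08. Bmper, an extracellular BMP modulator, had 1.41 to 12.1 CPM (median 1.95) against 4.06 to 14.5 CPM (median 8.67), a difference of -1.53 ± 0.24, with the passage 1 well alone within the Control range. Of 49 Wnt genes 8 were higher and 7 lower, close to the 17.0% and 15.4% of all genes over wells. Lgr5, the R-spondin receptor (1.73 to 5.05 CPM, median 4.3, against 0.767 to 3.16 CPM, median 1.16, 1.15 ± 0.19), was the member that passed over culture sums.

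Notch holds OPCs back from differentiating. Of 33 Notch genes 9 were higher and 8 lower over wells (3 and 2 over culture sums), where 17.0% and 15.4% of all genes were. The Fringe enzymes, which set which ligand Notch answers, moved apart. Mfng had 2.32 to 7.24 CPM (median 4.78) in K27M and 0.331 to 2 CPM (median 0.767) in Control libraries (2.21 ± 0.22, adjusted p = 5.7e-15 by edgeR's quasi-likelihood test, 0.000379 over culture sums), and Lfng 5.47 to 31.9 CPM (median 7.5) against 17 to 64.8 CPM (median 52.7), a difference of -2.15 ± 0.26 (adjusted p = 2.21e-11, 0.00331 over culture sums). Mfng did not overlap, while for Lfng the passage 1 well alone lay within the Control range. Dll3, a ligand that dampens Notch, had 5.67 to 63.5 CPM (median 27.5) against 4 to 16.6 CPM (median 6.42), a difference of 1.92 ± 0.30, and Maml3, a coactivator, 1.21 ± 0.18. Of 23 TGF-beta genes 3 were higher and 5 lower, where 17.0% and 15.4% of all genes were. Ltbp4, a latent TGF-beta binding protein (1.01 ± 0.22), passed over culture sums.

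Of 33 growth factor and hormone receptors 5 were higher and 12 lower (2 and 4 over culture sums), with a median of -0.18. Egfr had 9.69 to 45.3 CPM (median 12.5) against 18.9 to 72.7 CPM (median 47.2), a difference of -1.51 ± 0.25, and Thrb, a thyroid hormone receptor, 0.289 to 2.83 CPM (median 0.474) against 0.67 to 4.33 CPM (median 2.52), a difference of -1.75 ± 0.29. In both the passage 1 well alone lay within the Control range, and over culture sums without the passage 3 wells the adjusted p-values were 0.248 and 0.234. Of 28 immediate early genes 3 were higher and 4 lower, where 17.0% and 15.4% of all genes were. Among the lower was Etv4, an ETS factor of growth factor signalling (-1.50 ± 0.24). Of 29 integrated stress response genes 1 was higher and 5 lower, again beside 17.0% and 15.4% of all genes. Atf3, a stress-induced factor, was among the lower (-1.70 ± 0.31). Of 23 interferon genes 2 were higher and 2 lower over wells. Over culture sums 0 passed in edgeR (2 and 2 at an unadjusted p under 0.05) and 0 were higher and 1 lower in limma voom. Stat2 (0.02 ± 0.12) and Mx2 (-0.43 ± 0.21) did not pass. Of 13 mitochondrially encoded genes 1 was higher and 0 lower over wells, 0 over culture sums in edgeR (2 and 1 at an unadjusted p under 0.05) and 0 in limma voom. The values of mt-Co1 (-0.27 ± 0.12), mt-Co3 (0.58 ± 0.29) and mt-Cytb (0.03 ± 0.20) were among those that did not pass.

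The effect of K27M was set against that in the brainstem at the same day (17 libraries) by testing the difference of the 2 effects. The brainstem wells were at passages 5, 2 and 6 in K27M and 5, 4 and 8 in Control (cultures 38, 41 and 42) and in sequencing batches 3 and 4, so that region and batch cannot be told apart. Most brainstem wells were at later passages than those of telencephalon, and the part of passage was not tested. Over wells 2772 genes passed edgeR's quasi-likelihood test (14.0%), 1330 with a larger value in telencephalon (6.73%) and 1442 with a smaller one (7.29%). Over culture sums 247 passed (1.25%), 19 larger (0.0961%) and 228 smaller (1.15%). Lhx2, a factor of forebrain patterning, differed most in the first direction. In telencephalon it had 4.09 to 11.9 CPM (median 7.09) in K27M and 2.23 to 8.87 CPM (median 7.14) in Control libraries and did not pass (0.29 ± 0.21, adjusted p = 0.3), while in brainstem it had a mean of 0.0778 CPM in K27M against 2.76 in Control (-5.29 ± 0.34). The difference of the effects was 5.59 ± 0.41 (adjusted p = 1.13e-22, 2.09e-05 over culture sums). Itga4 rose in both regions, more in telencephalon (difference 1.88 ± 0.29, adjusted p = 3.18e-07, 0.0377 over culture sums). Tmem255b, a membrane protein (2.27 ± 0.36), and Cnpy1, a regulator of FGF signalling (2.23 ± 0.29), rose in telencephalon over wells. In brainstem Tmem255b fell (-1.01 ± 0.26) and Cnpy1 did not pass (-0.45 ± 0.20).

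In the other direction stood Sparcl1, an extracellular matrix protein of astrocytes, with 9.32 to 152 CPM (median 11.2) against 16.4 to 266 CPM (median 114) in telencephalon (-2.25 ± 0.50, adjusted p = 0.137 over culture sums) and means of 9.62 against 0.555 CPM in brainstem (3.89 ± 0.64). Its difference was -6.14 ± 0.81 (adjusted p = 2.46e-09 by edgeR's quasi-likelihood test, 0.0218 over culture sums). Acta2, smooth muscle actin (-6.61 ± 1.19), Cyp1b1, a cytochrome P450 (-5.67 ± 0.82), and Cybrd1, a ferric reductase (-5.34 ± 0.86), differed alike. Cyp1b1 did not pass in telencephalon by itself (-1.02 ± 0.47), and in the 4 genes the passage 1 well of K27M culture 42 was the highest K27M library. Of 20 astrocyte genes 11 were higher and 1 lower in brainstem, where 13.6% and 12.5% of all genes were, with a median of 1.13 (2 and 0 over culture sums), and for 15 of 20 the difference of effects passed, all 15 smaller in telencephalon (6 over culture sums). The BMP list too had 22 genes higher and 1 lower in brainstem (7 and 0 over culture sums), and the difference passed for 2 larger and 17 smaller (0 and 10 over culture sums).

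**Figure D4:**
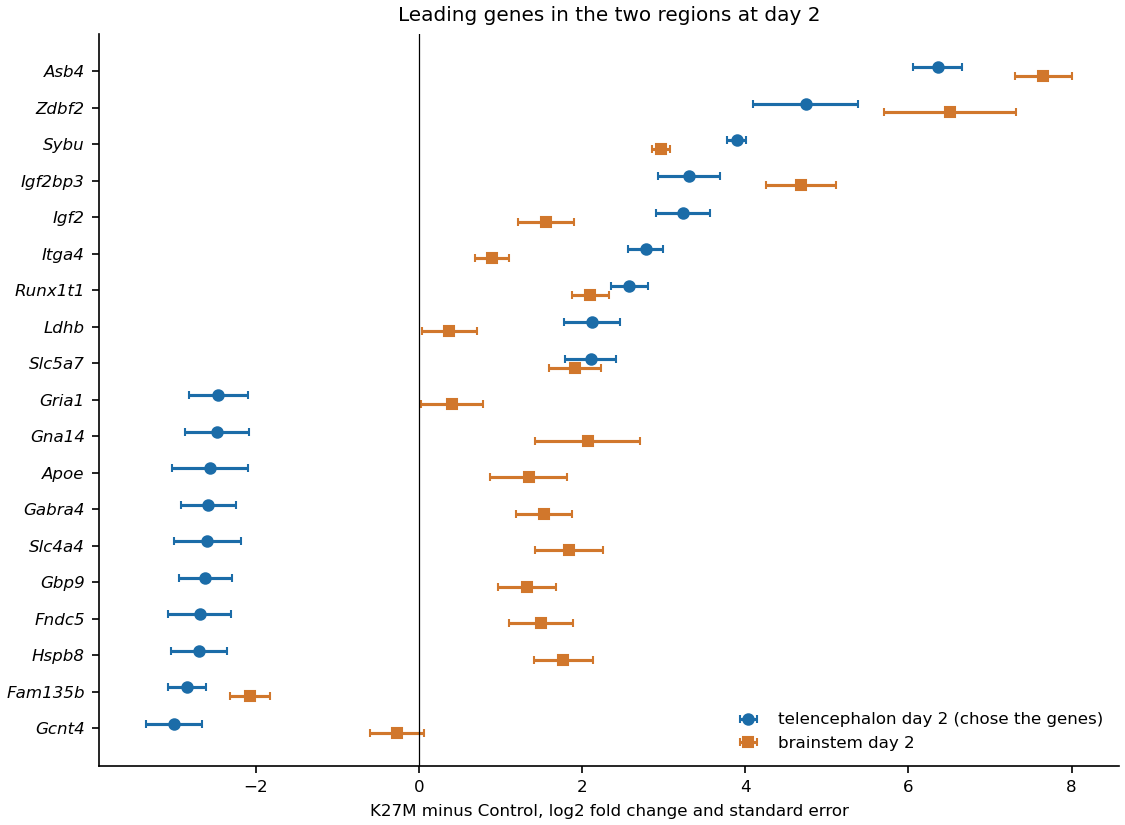
Log2 fold change of K27M over Control ± SE at day 2 in telencephalon (circles) and brainstem (squares) for the genes with the largest rises and falls in telencephalon, Prm1 left out. Telencephalon chose the genes. The 9 rises shown are also above 0 in brainstem, and 8 of the 10 falls are above 0 there too.

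The side-by-side plot of both regions gives values for genes picked in telencephalon, so that no test of likeness between the regions is attached. Asb4, Zdbf2, Sybu and Igf2bp3 rose in brainstem as well (7.66 ± 0.35, 6.51 ± 0.81, 2.97 ± 0.12 and 4.68 ± 0.43). Fam135b fell in both (-2.07 ± 0.24 in brainstem). Hspb8, Slc4a4, Apoe and Gna14, which fell in telencephalon, were higher in brainstem, at 1.77 ± 0.36, 1.84 ± 0.42, 1.35 ± 0.47 and 2.07 ± 0.64. Gna14 was near the floor there, with means of 0.355 CPM in K27M and 0.0868 in Control. Over culture sums in brainstem Hspb8 passed edgeR's quasi-likelihood test (adjusted p = 0.0324). Slc4a4, Apoe and Gna14 did not (0.124, 0.357 and 0.194).

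Against the other days of telencephalon, the effect of K27M at day 2 differed from that in proliferating cells (day 0) for 2301 genes over wells (11.6%, 7.34% larger and 4.3% smaller at day 2) and for 2 over culture sums (0.0101%), from day 1 for 405 genes (2.05%) and from day 5 for 2538 genes (12.8%) and 20 over culture sums (0.101%). For day 1, 0 genes passed over culture sums in edgeR (717 at an unadjusted p under 0.05), and 878 passed over wells in limma voom. Itga4 was equal at day 0, with means of 11.5 CPM in both groups (-0.01 ± 0.19). Means were 32.9 CPM in K27M and 9.3 in Control at day 1, and 12.5 and 5.61 at day 5. The difference of the effects at days 2 and 0 was 2.79 ± 0.29 (adjusted p = 1.05e-12, 0.0191 over culture sums). Ttc9b, a tetratricopeptide protein, turned from -0.59 ± 0.10 to 0.67 ± 0.10 (difference 1.26 ± 0.14, adjusted p = 6.72e-11, 0.00232 over culture sums).

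Fam135b turned the other way by day 5. From -2.84 ± 0.24 at day 2 it moved to 0.90 ± 0.22, with means of 19.5 CPM in K27M and 10.9 in Control at day 5 (difference 3.74 ± 0.32, adjusted p = 2.86e-17 by edgeR's quasi-likelihood test, 0.00346 over culture sums). Magee2 (1.61 ± 0.20), Olfm1, a secreted neuronal glycoprotein (1.39 ± 0.15), and Lrrtm4, a synaptic adhesion protein (1.34 ± 0.16), had larger effects at day 5. Pxdc1 (-2.03 ± 0.23), Syt7, a synaptotagmin (-1.95 ± 0.23), Nkain3, which binds a subunit of the sodium pump (-1.69 ± 0.18), and Sema4f (-1.68 ± 0.23) changed from higher at day 2 to lower at day 5.

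**Figure D5:**
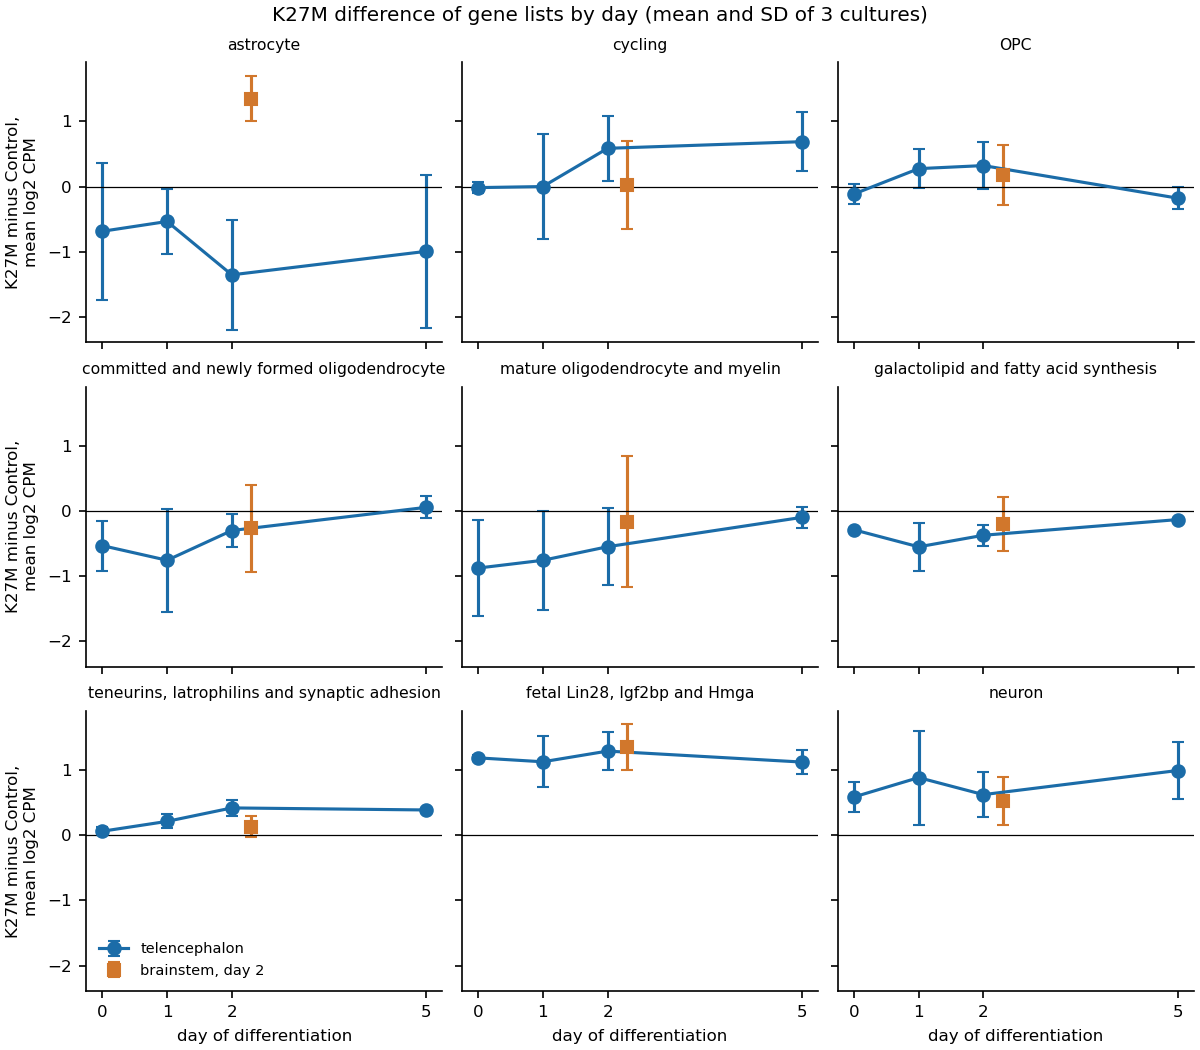
Difference of K27M and Control in the mean log2 CPM of 9 gene lists at days 0, 1, 2 and 5 of differentiation in telencephalon (circles, mean ± SD of 3 cultures) and at day 2 in brainstem (squares). The fetal list stays between 1.12 and 1.29 on all days, and the astrocyte list lies on opposite sides of 0 in the regions. The cell cycle list has a mean near 0 at days 0 and 1 and of 0.58 and 0.69 at days 2 and 5. Its SDs are 0.09, 0.81, 0.50 and 0.45 on these days, so that the cultures differed widely at day 1.

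The plot of lists by day places day 2 within the course. The fetal list differed by 1.18 ± 0.05 at day 0, 1.12 ± 0.39 at day 1, 1.29 ± 0.28 at day 2 and 1.12 ± 0.18 at day 5 (mean ± SD of 3 cultures). The myelin list differed by -0.88 ± 0.73 at day 0, -0.76 ± 0.76 at day 1, -0.55 ± 0.59 at day 2 and -0.10 ± 0.16 at day 5. The committed list differed by -0.53 ± 0.38, -0.76 ± 0.79, -0.30 ± 0.25 and 0.05 ± 0.17 on the same days, most at day 1. The teneurin and synaptic adhesion list rose from 0.06 ± 0.06 to 0.42 ± 0.13 and 0.39 ± 0.02. For its members the effect was larger at day 2 than at day 0 for 16 genes and smaller for 1 over wells. For the cell cycle list the same was true of 5 genes and of 0. Over culture sums 0 members of either list passed edgeR's test of this difference, and at an unadjusted p under 0.05 it was larger for 11 adhesion genes and smaller for 1, and 0 cell cycle genes differed. In limma voom over wells 16 adhesion genes were larger and 2 smaller, and 7 and 0 of the cell cycle list. Cultures 38, 41 and 42 supply every day, so that the days are not independent.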

How the data were processed

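The authors sequenced stranded total RNA of each well and quantified it per transcript with Salmon 1.10.1 (mm10 in the submitters' processing notes) with sequence and GC bias correction. The deposited estimated counts are not whole and were made by Salmon before deposit, and the deposited TPM values and effective lengths come from the same runs. Estimated counts were summed per gene with a GENCODE annotation, which placed 139821 of 141084 transcripts in 54127 genes (0.252 to 0.377% of reads unmatched), and rounded. TPM was not used for tests, and effective lengths entered as an offset in 1 alternative.

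All 142 libraries were fitted together in edgeR 4.0.16 (R 4.3.3) with TMM scaling, a low-count filter, 16 groups and culture within region as a block, and p-values were adjusted by Benjamini-Hochberg over 19769 genes. The same model was fitted to counts summed per culture line and day, again over all 16 groups. It has no term for the line, so that sums of a line on different days counted as independent, and its p-values do not rest on the day 2 cultures alone. For cultures that share a number in the labels, deviations of K27M and Control correlated at 0.257 (38), 0.101 (41) and 0.244 (42). Other pairings gave -0.319 to 0.099. K27M culture 41 was as close to Control culture 42 (0.099) as to Control culture 41 (0.101). Culture 38 had a sequencing batch of its own in telencephalon, and the part of batch was not tested. Deviations of cultures from a shared mean are tied to each other, so that these values do not test the pairing. The block was kept with this limit. Alternatives were limma 3.58.1 (voom with culture line as a random effect, within-line correlation 0.252), DESeq2 1.42.0, other scaling and filters, the 18 libraries alone, passage as a covariate and each culture left out. Replicate wells differed by more than counting noise (chi-square per degree of freedom 6.37 to 179). Log2 CPM used a prior count of 2. Tested on simulated data with 200 changed genes of 19769, the day 2 comparison over wells recovered 92% of 2-fold and 75% of 1.5-fold changes, with 12 false calls (6.70%). The simulated wells of a culture line varied independently, unlike the real wells, so that these shares do not apply to the calls over wells here.

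Genes were named by rule: the 10 highest and 10 lowest of those that passed over wells and culture sums with 1 sign in 3 cultures at a mean of at least 5 CPM, up to 4 of each list at a mean of at least 1 CPM, members the study names, and the leading differences between regions and days. Members and lists were chosen with earlier results of these data known. Promoter windows were matched by symbol and cover 77.1% of the protein-coding genes tested. They cover 70.8% of those higher and 73.6% of those lower by at least 2-fold. No comparison of CG content over all changed genes is given, so that its relation to the changes was not tested. Some genes that the rule names are not reported here.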

Additional observations from a re-analysis of the deposited data

Results flagged for a closer look

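Among 108 groups of 9 libraries examined (the K27M or Control libraries of a list mean or of a leading gene), 31 held a library far from the others by Dixon's criterion at the 95% level. Chance gives about 1 in 20 groups, and groups of wells from 3 cultures are not groups of independent values.

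In 23 of them the library was the passage 1 well of K27M culture 42. Its mean log2 CPM was 5.56 for the astrocyte list (2.84 to 3.67 in the other 8 K27M libraries), 3 for the neuronal list (1.77 to 2.05), 0.954 for the microglial list (-0.551 to 0.195), 0.394 for the vascular and fibroblast list (-2.36 to -1.48) and -1.16 for the ependymal list (-2.24 to -1.77). Signalling and adhesion lists stood out in the same direction, with BMP at 2.81, Wnt at 2.57, TGF-beta at 2.35, integrins and laminins at 2.79, Eph and Slit guidance at 2.94, semaphorins at 4.34, growth factor receptors at 4.05 and the integrated stress response at 3.96. So did the telencephalic list (1.40 against -0.0805 to 0.599) and the PRC2-silenced list (-0.924 against -1.29 to -1.15). Its log2 CPM was above the others for Hspb8 (4.90), Fndc5 (2.25), Slc4a4 (5.80), Gabra4 (2.25), Apoe (7.73), Gna14 (3.35) and Gria1 (4.24), and below them for Igf2 (4.95 against 6.07 to 7.10).

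In 7 groups the library was a well of Control culture 42. Well 3 was high for cell cycle genes (4.91, others 3.75 to 4.31), myelin genes (6.49, others 5.27 to 5.42), CDK inhibitors and p53 targets (5.18, others 4.16 to 4.35) and Itga4 (2.31), and low for Fam135b (4.15, others 5.08 to 5.96). Well 2 was low for mitochondrially encoded genes (5.90, others 6.68 to 7.26) and was the only Control library with a count of Prm1 (-3.90). A well of Control culture 41 was low for Ldhb (1.65, others 4.04 to 6.10).

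The effect of K27M differed between regions or days by a test of the difference, over wells and culture sums, for the following genes. Between telencephalon and brainstem at day 2 the difference of effects (log2) was 5.59 for Lhx2, 2.27 for Tmem255b, 2.23 for Cnpy1 and 1.88 for Itga4, and -6.61 for Acta2, -6.14 for Sparcl1, -5.67 for Cyp1b1 and -5.34 for Cybrd1. Between days 2 and 0 in telencephalon it was 2.79 for Itga4 and 1.26 for Ttc9b. Between days 5 and 2 it was 3.74 for Fam135b, 1.61 for Magee2, 1.39 for Olfm1 and 1.34 for Lrrtm4, and -2.03 for Pxdc1, -1.95 for Syt7, -1.69 for Nkain3 and -1.68 for Sema4f.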

How the results depend on the processing

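With 3 cultures a side and unmatched passages, counts depended most on whether wells or culture sums were the unit. Alternatives that leave out wells of K27M culture 42 by passage were chosen after seeing the data. The cause of each change was not tested, apart from fewer samples in sums and in fits without a culture. The 6390 genes called at day 2 became 3306 in limma voom, 1238 over culture sums, 2907 in DESeq2 with a 1.1-fold threshold and 4214 to 7118 without 1 culture. Over culture sums they were 1890.0 without the passage 1 well and 464 without the passage 3 wells. Between regions, 2772 became 785 in limma voom, 247 over culture sums, 1865 to 4437 without 1 culture, and 432 and 48 over culture sums without the passage 1 and the passage 3 wells. Between days 2 and 0, 2301 became 1363 without a filter on low counts, 1409 without the replicate block, 2 over culture sums, 839 to 2296 without 1 culture, 1305 without the passage 3 wells, and 2 and 3 over culture sums without the passage 1 and passage 3 wells. Between days 2 and 1, 405 became 157 without the filter, 878 in limma voom, 0 over culture sums, 108 without the replicate block, 356 to 786 without 1 culture, 931 without the passage 1 well, 141 without the passage 3 wells, and 1 and 0 over culture sums without the passage 1 and passage 3 wells. Between days 5 and 2, 2538 became 20 over culture sums, 1376 to 3138 without 1 culture, 1634 without the passage 3 wells, and 28 and 12 over culture sums without the passage 1 and passage 3 wells. Of the list members, 387 called became 108 over culture sums, 294 to 380.0 without 1 culture, and 146 and 59 over culture sums without the passage 1 and passage 3 wells. Without the replicate block the day 2 count was 5035, so that the pairing changed no other count of calls by over 1.5 times.

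Of 132 named genes, 59 lost their call over culture sums without the passage 3 wells and 15 over culture sums, and at most 13 under any other setting. Mki67 and Top2a lost theirs without culture 41 (0.45 and 0.18) and in limma voom. Signs turned for genes that did not pass, and no called gene turned. With RLE size factors and DESeq2 these were Stat2 (-0.0172 and -0.0173), mt-Cytb (-0.00527 and -0.00525), Cd68 (-0.00358 and -0.00543), Pax6 (-0.0178 and -0.0141) and Gpr17 (-0.0211 and -0.0211). Without the filter they were Stat2 (-0.00778), Pax6 (-0.008002) and Gpr17 (-0.0083), and with the 18 libraries alone Stat2 (-0.00193), Cd68 (-0.00269), Pax6 (-0.0183) and Gpr17 (-0.0209). In limma voom they were Cd68 (-0.00223), P2ry12 (-0.0621), Pax6 (-0.0696) and Gpr17 (-0.00985), with passage as a covariate Stat2 (-0.00284), mt-Cytb (-0.0243) and Gpr17 (-0.0225), without the replicate block Pax6 (-0.0107), and over culture sums Cd68 (-0.00434). Leaving out a culture in turn gave both signs for Pcna (-0.108 to 0.218), Hoxd1 (-0.342 to 2.21), Stat2 (-0.0842 to 0.0913), mt-Cytb (-0.234 to 0.21), P2ry12 (-0.324 to 0.303), Lhx2 (-0.218 to 0.767), Irx2 (-0.227 to 1.28), Pax6 (-0.399 to 0.384), Gpr17 (-0.201 to 0.16) and Gbx1 (-1.26 to 0.0199). Without the passage 1 well Stat2 (-0.0299), Cd68 (-0.0995) and Pax6 (-0.12) turned, and over culture sums without it Stat2 (-0.0392), Cd68 (-0.12), P2ry12 (-0.0288) and Pax6 (-0.16). Without the passage 3 wells mt-Cytb (-0.0964) and Gpr17 (-0.17) turned, and over culture sums without them mt-Cytb (-0.0727) and Gpr17 (-0.23).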

Other observations

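Sets of genes that changed between days were also defined outside the telencephalon libraries. They were not limited to genes of oligodendrocyte stages, and the part of astrocyte and cell cycle genes in the counts below was not tested. In Control brainstem cultures 1494 genes rose and 1987 fell from day 1 to day 2 over wells, a set chosen after seeing the data. In telencephalon at day 2, 459 of the 1494 genes that rise (30.7%) were lower in K27M and 43 (2.88%) higher, against 15.4% and 17.0% of all genes. Their median was -0.34, and by culture it was 0.01, -0.52 and -0.57 in cultures 38, 41 and 42. Of the 1987 genes that fall, 720 (36.2%) were higher in K27M and 147 (7.40%) lower, with a median of 0.47 (0.26, 0.60 and 0.46 by culture).

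The split was weaker without the passage 3 wells of K27M culture 42, with 272 of the rising genes lower and 55 higher (median -0.21) and 504 of the falling genes higher and 114 lower (median 0.36). With the genes that changed from day 0 to day 5 in Control brainstem, 1223 of 4303 rising genes (28.4%) were lower in K27M and 233 higher (median -0.23), and 1403 of 3116 falling genes (45.0%) were higher and 149 lower (median 0.39). Over culture sums 84 of the 1494 rising genes were lower and 4 higher, and 190 of the 1987 falling genes were higher and 31 lower. For the sets of days 1 and 2 the split was not particular to day 2 in telencephalon. Their medians for rising and falling genes were -0.50 and 0.45 in telencephalon at day 1 and 0.10 and 0.10 at day 5. In brainstem at day 2 they were -0.26 and 0.41, where the Control libraries that chose the sets are also the controls. For the sets of days 0 and 5 the medians were smaller elsewhere. They were -0.11 and 0.20 in telencephalon at day 1, -0.02 and 0.09 at day 5, and -0.01 and 0.10 in brainstem at day 2. Culture 38 differed from the others in the rising sets, where its medians were at 0.01 and -0.00.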
